A study of Homo sapiens with 9 samples.

Results

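A set of 10 genes that mark or maintain blood stem cells was examined in HAL-01 leukemia cells: MECOM, MLLT3, HOXA9, HOXA10, MEIS1, RUNX1, GATA2, LMO2, MYB and SPINK2. The members were taken by their GENCODE release 44 symbols from 62700 genes in the deposited tables, and the transcript rows of each gene identifier were summed. HAL-01 is an established line of B cell acute lymphoblastic leukemia with the t(17;19) translocation, which produces the fusion transcription factor TCF3::HLF. All 9 cultures stably expressed Cas9 with GFP (label Cas9GFP) and were collected on day 13. In 3 libraries the guide was sgRNA_96 and in 3 it was sgRNA_97, both labelled as KO of the MEF2C enhancer, and 3 carried the scrambled guide SCR1 (label Ctr_SCR). Both enhancer guides were directed at the HLF motif of an enhancer of MEF2C that TCF3::HLF binds. The share of edited cells, and any selection for them, is not given in the sources used here. The labels do not say whether the replicates came from separate transductions, so p-values measure the spread between these libraries, which may be technical.

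Most members are transcription factors of the hematopoietic stem cell. MECOM (EVI1) is a zinc finger protein of long-term stem cells, and HOXA9, HOXA10 and their TALE cofactor MEIS1 are homeodomain proteins that keep progenitors self-renewing and are often highly expressed in leukemias with KMT2A rearrangement. GATA2, RUNX1 and LMO2 belong to a group of regulators, called the heptad, that bind blood stem cell enhancers together, and LMO2 itself does not contact DNA but bridges bHLH and GATA factors through LDB1. MYB drives the expansion of progenitors and early B and T cells, MLLT3 (AF9) reads acylated histones within the super elongation complex and helps to maintain human stem cells, and SPINK2 is a serine protease inhibitor whose transcript marks primitive progenitors. In B cell development HOXA9, MEIS1, GATA2 and MECOM are normally turned off, while MYB, RUNX1 and LMO2 remain expressed in early B cell precursors.

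To show what was targeted, the 3 enhancer guides of the study's oligo list are printed 5′ to 3′, with the 8 bases of a TTANNTAA match, the form of the HLF motif searched here, in capitals. In the paper, E.1 and E.2 are the guides for the HLF motif, and E.3 cuts downstream of it. Both sequenced guides were directed at the motif, but which oligo is sgRNA_96 or sgRNA_97 is not given in the sources used here.
E.1: tagcaTTACATAAtacatgt
E.2: ttagcaTTACATAAtacatg
E.3: tcaaagttcttggaacagga
In hg38, E.1 matched chr5:88825103-88825122 and E.2 matched chr5:88825104-88825123, both on the minus strand, and E.3 matched chr5:88825164-88825183 on the plus strand. Each was followed by an NGG PAM. All 3 sites lay within the MEF2C gene and in no annotated exon, hence in an intron. E.1 and E.2 were shifted by 1 base and covered the motif, which E.3 did not hold. MEF2C encodes a MADS-box transcription factor of lymphoid and myeloid progenitors. Its level was 552 ± 13.4 CPM (SD, n = 3) in SCR1 and 509 ± 22.1 CPM (SD, n = 6) in the enhancer KO libraries, a log2 fold change of -0.12 (adjusted p 0.0620, and 0.0198 in DESeq2). CPM is the count over the scaled library size, times 1000000. Each adjusted p is from the quasi-likelihood F test of edgeR, adjusted by Benjamini and Hochberg's method across all genes tested, unless another test is named, and the threshold is 0.05.

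The libraries held between 15212462 and 29777361 counts, the deepest being SCR1 replicate 1. Mitochondrial genes took 6.22 to 7.01% of the counts in the KO and 5.97 to 6.35% in the SCR1 libraries. The B cell origin of the line was visible in its markers. All 9 B lineage markers were expressed, and their summed level was 4492 to 4696 TPM in SCR1 and 4492 to 4851 TPM in the KO libraries. TPM is a level per transcript length, scaled to a fixed total per library. Of 5 T cell markers none reached 1 TPM and CD3D, CD3E and CD3G were at 0. Of the erythroid and megakaryocyte markers, HBB, HBA1 and PF4 were at 0, and KLF1 and ITGA2B averaged under 1 TPM in both classes. The 5 myeloid markers summed to 16.0 to 19.1 TPM in SCR1 and to 15.6 to 20.8 TPM in the KO libraries.

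Of the 10 members 4 were expressed and 6 were not. Expressed members were MYB, LMO2, RUNX1 and MLLT3, the only ones that passed the filter on low counts, which 14436 genes passed. Not expressed were MECOM, HOXA9, HOXA10, MEIS1, GATA2 and SPINK2, which stayed under 1 TPM on average in every group and failed the filter. In SCR1, MYB stood highest at 188 ± 12.3 TPM (SD, n = 3), followed by LMO2 at 97.3 ± 1.48, RUNX1 at 42.4 ± 1.64 and MLLT3 at 12.4 ± 0.78 TPM. Among the 13220 genes with at least 1 TPM in SCR1, MYB ranked 596, LMO2 1201, RUNX1 3097 and MLLT3 7429. No SCR1 library of one gene overlapped the next in this order.

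HOXA9, HOXA10 and GATA2 had 0 counts in all 9 libraries. A count of 0 allows up to 3 counts, which is 0.102 to 0.199 CPM in a single library and 0.0172 CPM, without scaling, over the 174239875 counts of all libraries. Intervals and limits of this kind cover counting error only. HOXA9 (chr7:27162438-27175180, minus strand) and HOXA10 (chr7:27170605-27180261, minus strand) overlap each other and the readthrough gene ENSG00000257184, which was also at 0, so reads of one cannot have been credited to another of the 3. The antisense gene HOXA10-AS and the microRNA gene MIR196B, which lie in the same stretch, were at 0 as well. GATA2 (chr3:128479427-128493201, minus strand) was at 0 while its antisense neighbour GATA2-AS1 had 1 count in 1 library. These 3 factors were therefore not detected at this depth in any group, and no fold change can be given.

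MEIS1 (chr2:66433452-66573869, plus strand) had 2 counts in SCR1 replicate 1, on a retained-intron transcript, and 0 in the other 8 libraries. SPINK2 (chr4:56809860-56821742, minus strand) had 2, 0 and 1 counts in SCR1 replicates 1, 3 and 4, 0, 0 and 1 with sgRNA_96, and 0, 2 and 1 with sgRNA_97. KO and SCR1 libraries were alike in holding at most 2 counts, and relative to the total counts the KO over SCR1 ratio was 0.865, with an exact 95% interval from 0.146 to 5.91.

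MECOM (chr3:169083499-169663775, minus strand) had 1, 0 and 0 counts in SCR1 replicates 1, 3 and 4. It had 2, 2 and 1 counts with sgRNA_96 and 0, 4 and 2 counts with sgRNA_97. In all, 5 of 6 KO libraries and 1 of 3 SCR1 libraries thus held at least 1 count, and sgRNA_97 replicate 3 held the most. The ratio of 11 to 1 counts, relative to the total counts, was 7.14 with an exact 95% interval from 1.04 to 307. This interval leaves out the spread between libraries, and the highest level, in sgRNA_97 replicate 3, was 0.0767 TPM. RPL22P1, a processed pseudogene on the same strand within the MECOM gene (chr3:169483671-169484080), was expressed at 19.5 TPM on average. Of the MECOM transcripts with counts, MECOM-219, MECOM-203 and MECOM-202 lie at or below position 169146305. Only MECOM-217 spans the pseudogene, with 29.3% of the MECOM counts in sgRNA_97 replicate 3 and none elsewhere. The part of RPL22P1 in the MECOM counts was not tested.

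**Figure D1:**
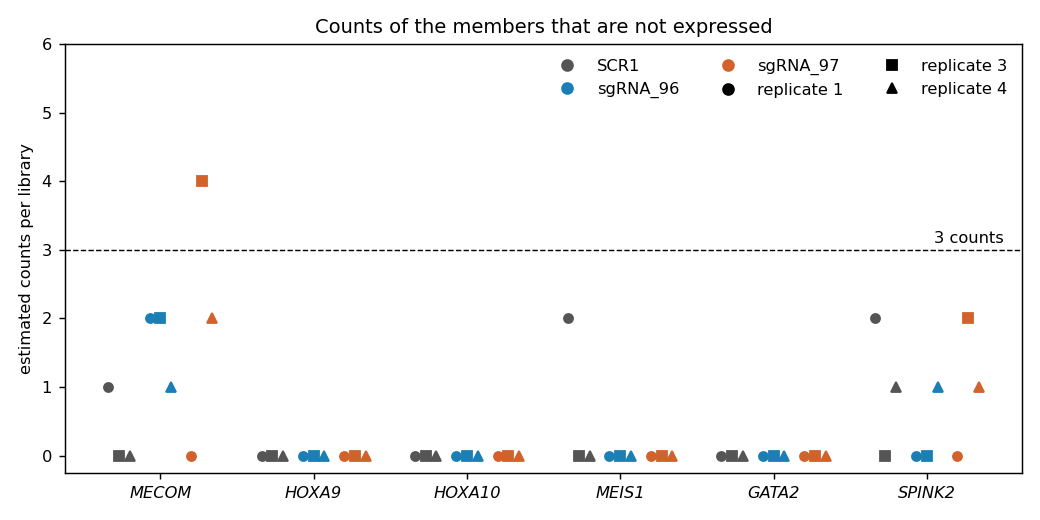
Estimated counts per library (y axis) of the 6 members that are not expressed (x axis), coloured by guide, with a shape for each replicate and a dashed line at 3 counts. HOXA9, HOXA10 and GATA2 sit at 0 in every library, and the highest point is MECOM with 4 counts in sgRNA_97 replicate 3.

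To determine whether the enhancer KO changed these genes, the 6 KO libraries were set against the 3 of SCR1. All 4 expressed members passed the threshold, where 20.7% of all genes tested passed it. LMO2 and MLLT3 were higher in the KO libraries, as were 10.1% of all genes, and RUNX1 and MYB were lower, as were 10.6%. Over all genes the median log2 fold change was 0.003 and the median size of a change, regardless of direction, was 0.15. For each of the 4 the KO and SCR1 values in CPM did not overlap, as was the case for 20.3% of the genes tested. The changes were of different size. LMO2 changed more than 92.6% of the genes tested, RUNX1 more than 84.6%, MLLT3 more than 69.4% and MYB more than 52.9%. In bulk RNA, a change in each cell and a change in the share of cells that express the gene cannot be told apart.

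LMO2 rose the most. It stood at 109, 102 and 102 CPM in SCR1 replicates 1, 3 and 4. With sgRNA_96 it was at 154, 154 and 156 CPM, and with sgRNA_97 at 156, 146 and 157 CPM. Every KO library lay above every SCR1 library, and within a guide the libraries were close together. The mean rose from 104 ± 4.30 (SD, n = 3) to 154 ± 4.001 CPM (SD, n = 6). This is 1.47-fold, or 0.56 on the log2 scale (SE 0.04, 95% interval 0.47 to 0.65, adjusted p 6.8e-07 by edgeR). Per length, the mean rose from 97.3 ± 1.48 to 144 ± 6.08 TPM. LMO2 was called under each of 17 other settings, with log2 fold changes between 0.54 and 0.59.

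RUNX1 fell. This DNA-binding partner of CBFB is needed for the emergence of blood stem cells and for lymphoid development. It stood at 190, 177 and 179 CPM in SCR1 replicates 1, 3 and 4, at 146, 127 and 154 CPM with sgRNA_96, and at 145, 135 and 137 CPM with sgRNA_97. All KO libraries were below all SCR1 libraries, and sgRNA_96 replicates 3 and 4 were the lowest and the highest of the KO libraries. The mean fell from 182 ± 6.94 (SD, n = 3) to 141 ± 9.46 CPM (SD, n = 6). On the log2 scale the change was -0.37 (SE 0.05, 95% interval -0.48 to -0.26, adjusted p 2.0e-04 by edgeR). RUNX1 was called under each of 17 other settings, with log2 fold changes between -0.41 and -0.34.

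MYB fell by a smaller margin. It was at 390, 397 and 358 CPM in SCR1 replicates 1, 3 and 4, at 340, 335 and 356 CPM with sgRNA_96, and at 357, 338 and 325 CPM with sgRNA_97. The groups touched, since SCR1 replicate 4 at 358 CPM was just above sgRNA_97 replicate 1 at 357 CPM. In TPM they overlapped, since sgRNA_96 replicate 4 at 179 TPM was above SCR1 replicate 4 at 175 TPM. The mean went from 382 ± 21.0 (SD, n = 3) to 342 ± 12.3 CPM (SD, n = 6), which is -0.16 on the log2 scale (SE 0.04, 95% interval -0.25 to -0.06, adjusted p 0.0187 by edgeR). The call was lost without SCR1 replicate 1 (adjusted p 0.0933), without SCR1 replicate 3 (0.0914) and in the tests on TPM, such as that on log2(TPM + 1) (0.0608).

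MLLT3 rose and was the least firm of the 4. It was at 20.3, 21.0 and 19.3 CPM in SCR1 replicates 1, 3 and 4, at 23.5, 22.7 and 22.7 CPM with sgRNA_96, and at 26.3, 22.1 and 25.8 CPM with sgRNA_97. The lowest KO library, sgRNA_97 replicate 3, was about 1 CPM above the highest SCR1 library, and in TPM both sgRNA_96 replicates 1 and 3 fell within the SCR1 range. The mean went from 20.2 ± 0.88 (SD, n = 3) to 23.8 ± 1.78 CPM (SD, n = 6), which is 0.24 on the log2 scale (SE 0.08, 95% interval 0.08 to 0.40, adjusted p 0.0369 by edgeR). The call was lost when any SCR1 library was left out, with adjusted p of 0.114, 0.0570 and 0.157 without replicates 1, 3 and 4, and without sgRNA_97 replicate 1 (0.0681) or replicate 4 (0.0713). It was also lost with an offset for gene length (0.153), with no expression filter (0.0714) and in tests on TPM, such as that on log2(TPM + 1) (0.177).

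**Figure D2:**
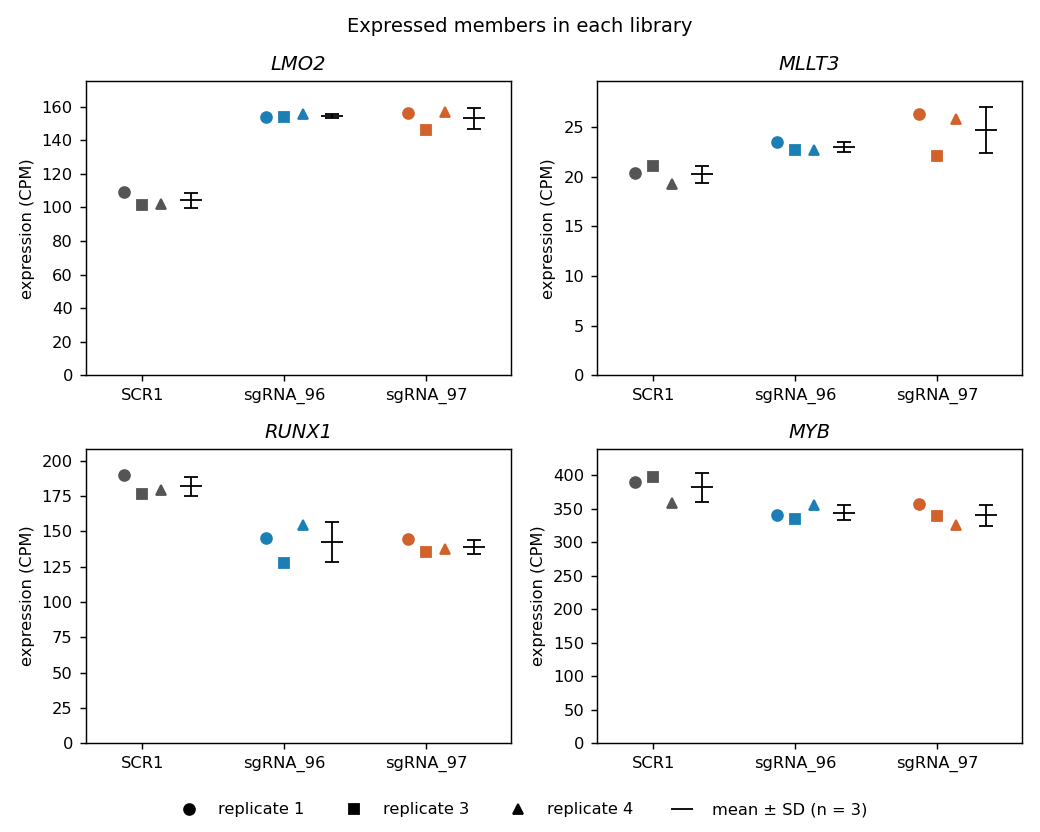
CPM (y axis, from 0) of LMO2, MLLT3, RUNX1 and MYB in each library by guide (x axis), with a shape for each replicate and bars for the mean and SD of 3 libraries. LMO2 sits at 102 to 109 CPM in SCR1 and at 146 to 157 CPM in the KO libraries, while the MYB groups nearly touch at 358 and 357 CPM.

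Because MYB fell and LMO2 rose, their levels per length drew together. The MYB over LMO2 ratio in TPM was 1.94, 2.04 and 1.82 in SCR1 replicates 1, 3 and 4. It was 1.13, 1.13 and 1.19 with sgRNA_96 and 1.17, 1.23 and 1.02 with sgRNA_97. The ratio was thus 1.93 ± 0.11 (SD, n = 3) in SCR1 and 1.15 ± 0.07 (SD, n = 6) in the KO libraries. MYB remained the more abundant of both genes in each library.

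The guides were then compared separately with the same 3 SCR1 libraries. With sgRNA_96, 2 of the 4 expressed members were called, LMO2 and RUNX1, where 11.2% of all genes were called. With sgRNA_97, 3 were called, LMO2, RUNX1 and MLLT3, where 15.1% of all genes were called. LMO2 changed by a log2 fold change of 0.57 (SE 0.05) with sgRNA_96 and 0.55 (SE 0.05) with sgRNA_97. RUNX1 changed by -0.35 (SE 0.07) and -0.39 (SE 0.07) on the log2 scale. MLLT3 changed by 0.18 (SE 0.09), with an adjusted p of 0.191 by edgeR, and by 0.29 (SE 0.09), with an adjusted p of 0.0374. For MYB the call with single guides depended on the setting. It missed the threshold with either guide in the 3-group fit, with log2 fold changes of -0.15 (SE 0.05) and -0.17 (SE 0.05) and adjusted p of 0.0846 and 0.0506 by edgeR. With sgRNA_97, MYB passed it with RLE scaling (0.0493), with no filter (0.0285), and without sgRNA_97 replicate 1 or SCR1 replicate 4 (0.0397 in each). In DESeq2, MYB passed it with both guides, with adjusted p of 0.0320 and 0.0123. RUNX1 missed the threshold with sgRNA_96 in the tests on TPM (adjusted p 0.0592 on log2(TPM + 1)) and with sgRNA_97 in that on log2(TPM + 1) without a filter (0.0708). The MLLT3 call with sgRNA_97 was lost without any 1 SCR1 library (0.105, 0.0541 and 0.133 without replicates 1, 3 and 4) and without sgRNA_97 replicate 1 (0.123) or 4 (0.120), as well as with no filter (0.0656) and on log2(TPM + 1) (0.0511).

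The direct comparison of sgRNA_97 with sgRNA_96 showed no called member. None of the 4 had an unadjusted p under 0.05 by edgeR, none was called by DESeq2, and 0.0208% of all genes were called. The log2 difference, sgRNA_97 minus sgRNA_96, was -0.01 for LMO2 (95% interval -0.12 to 0.10), -0.03 for RUNX1 (-0.17 to 0.11), -0.01 for MYB (-0.13 to 0.10) and 0.10 for MLLT3 (-0.08 to 0.29). For LMO2 and RUNX1, each interval is narrower than the change against SCR1, while for MLLT3 the interval would allow a difference between the guides as large as its change against SCR1.

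**Figure D3:**
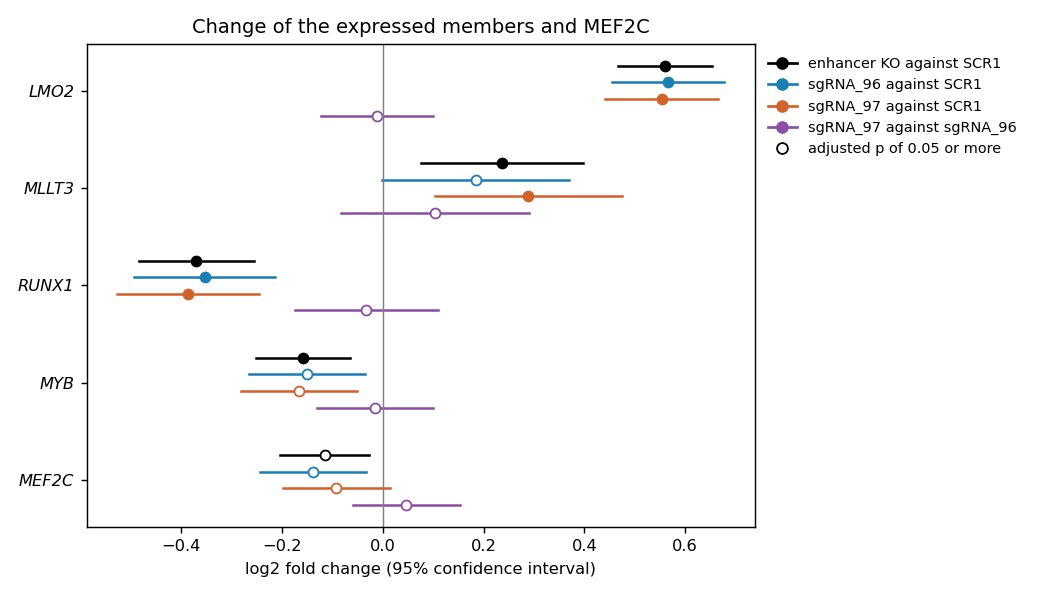
Log2 fold change (x axis) of the 4 expressed members and MEF2C (y axis) in the 4 comparisons, with 95% confidence intervals as lines and open circles for an adjusted p of 0.05 or more. LMO2 lies near 0.56 and RUNX1 near -0.37, and the 5 open circles of sgRNA_97 against sgRNA_96 lie near 0.

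RUNX1 is transcribed from 2 promoters that give proteins with different starts. The distal promoter yields RUNX1c, the form prominent in stem cells, and the proximal promoter yields RUNX1a and RUNX1b. Transcripts were grouped by their annotated starts after the transcript values had been seen, so the sums are given as a description with no test. On chromosome 21 of hg38 (minus strand), 6 transcripts start between 35049270 and 35049344, the distal group, and 4 start between 34887183 and 34889790, the proximal group. Distal transcripts summed to 17.7, 18.1 and 17.9 TPM in SCR1 replicates 1, 3 and 4, to 19.2, 14.7 and 16.6 TPM with sgRNA_96 and to 18.4, 14.6 and 16.8 TPM with sgRNA_97. Here the KO values lay on both sides of the SCR1 values. Proximal transcripts summed to 22.3, 24.4 and 21.4 TPM in SCR1, to 14.2, 12.5 and 18.0 TPM with sgRNA_96 and to 13.6, 14.0 and 14.4 TPM with sgRNA_97. All KO libraries were lower than all SCR1 libraries in the proximal group, with means of 14.4 ± 1.85 (SD, n = 6) against 22.7 ± 1.56 TPM (SD, n = 3). The proximal share of RUNX1 counts was 46.7 to 55.1% in the KO and 61.0 to 64.2% in the SCR1 libraries.

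One measure of this kind was set out for test, the share of the gene's TPM held by its most abundant transcript. For RUNX1 this was RUNX1-202 (ENST00000344691), which starts at the proximal promoter. Its share was 46.4, 46.2 and 48.2% in SCR1 replicates 1, 3 and 4 and 34.1 to 42.8% in the KO libraries. The mean share fell from 46.9% ± 1.07 (SD, n = 3) to 38.9% ± 3.52 (SD, n = 6). The exact two-sided permutation test gave p = 0.0238, which after adjustment over the 3 members tested was 0.0714 and above the threshold. Computed from counts in place of TPM, the share differed by -12.2 percentage points with an adjusted exact permutation p of 0.0357.

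The 200 bases before each RUNX1 start are printed on the minus strand, 5′ to 3′, to show how unlike these 2 promoters are. They end at the base before the start of RUNX1-201, chr21:35049345-35049544 in hg38, and before that of RUNX1-202, chr21:34888691-34888890, and they hold no annotated exon. No bases are in capitals, since none of the motifs was present in the form searched.
RUNX1 distal start: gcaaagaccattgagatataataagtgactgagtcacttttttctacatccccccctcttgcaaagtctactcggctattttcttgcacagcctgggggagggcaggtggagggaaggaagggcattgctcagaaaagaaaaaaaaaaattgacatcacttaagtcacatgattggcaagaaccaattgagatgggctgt
RUNX1 proximal start: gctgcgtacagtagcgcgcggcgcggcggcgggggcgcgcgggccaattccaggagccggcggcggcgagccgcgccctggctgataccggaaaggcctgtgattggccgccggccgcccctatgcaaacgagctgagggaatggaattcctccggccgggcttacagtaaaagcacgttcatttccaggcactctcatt
The distal sequence has 44% G and C and the proximal sequence 67.0%. Both strands were searched for the HLF motif in the form TTANNTAA, for the MEF2 box with its 4 middle bases free, and for the core of the site that RUNX proteins bind, written TGTGGT. They were also searched for a site of the GATA factors, written AGATAA, and for a 7-base form of the sites bound by ETS factors, written CCGGAAG. Shorter forms of the ETS site, such as the GGAA that both printed sequences hold, were not searched. The same search was made in the 200 bases before the gene start of 34943 RefSeq promoter sequences. Of these windows, 4.02% hold the HLF motif, 1.85% the MEF2 box, 8.73% the RUNX, 7.18% the GATA and 7.67% the ETS site in these forms.

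LMO2 has its distal start at position 33892076 and a group of proximal starts at 33869536 to 33869816 of chromosome 11 (minus strand). The distal transcript LMO2-201 was at 4.29, 4.04 and 3.54 TPM in SCR1 replicates 1, 3 and 4. It was at 4.63, 6.68 and 8.71 TPM with sgRNA_96 and at 8.14, 6.35 and 7.33 TPM with sgRNA_97. The proximal transcripts LMO2-202 and LMO2-203 summed to 53.3, 67.5 and 69.0 TPM in SCR1, to 113, 75.7 and 114 TPM with sgRNA_96 and to 88.5, 82.2 and 124 TPM with sgRNA_97. Both groups were higher in every KO library than in every SCR1 library, and the proximal one carried most of the gene's RNA. The other starts overlapped between KO and SCR1. LMO2-204, which starts within the gene at position 33865151, was at 16.6 to 37.7 TPM in SCR1 and at 12.2 to 52.6 TPM in the KO libraries, and transcripts of an intermediate start, 33870312 to 33870529, summed to 3.39 to 6.53 TPM and to 4.09 to 8.85 TPM. Among the KO libraries LMO2-204 was highest in sgRNA_96 replicate 3, where the proximal sum was lowest, and lowest in sgRNA_97 replicate 4, where that sum was highest. The share of reads that Salmon gave to single LMO2 transcripts thus varied widely between libraries, across starts as well as within the proximal group. LMO2-203, annotated as subject to nonsense-mediated decay, held between 18.9 and 58.4% of the gene's TPM, and its share did not pass the test (adjusted exact permutation p = 0.571).

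**Figure D4:**
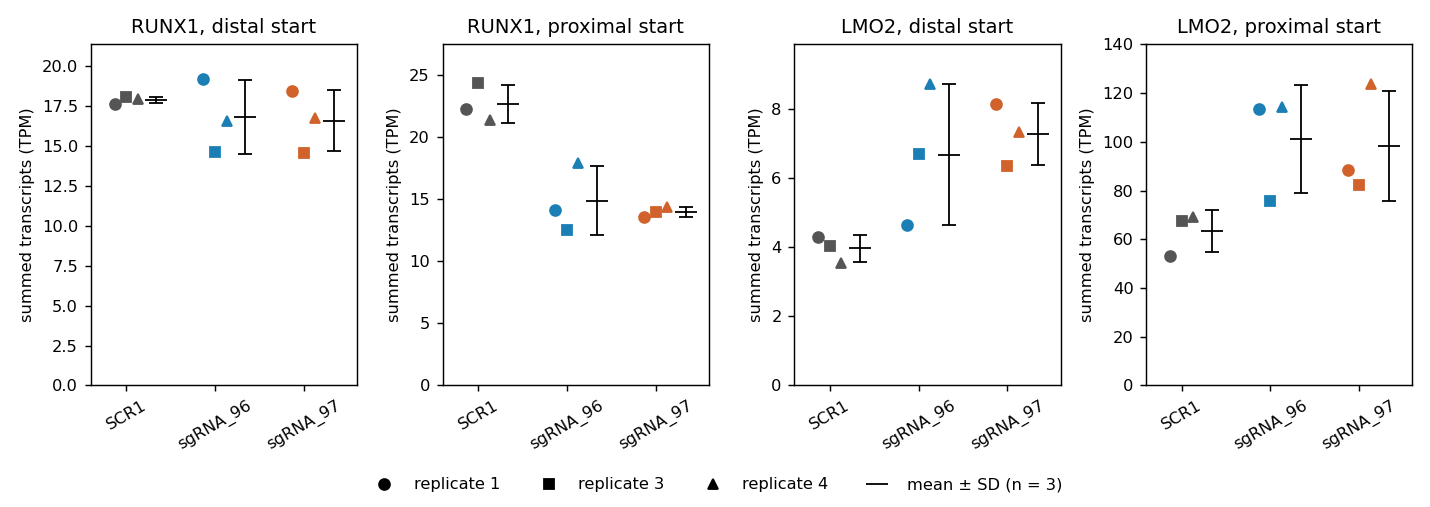
Summed TPM (y axis, from 0) of the transcripts that begin at the distal and the proximal starts of RUNX1 and LMO2, for each library by guide (x axis), with a shape for each replicate and bars for the mean and SD of 3 libraries. The proximal RUNX1 sum is 21.4 to 24.4 TPM in SCR1 and 12.5 to 18.0 TPM in the KO libraries, while the distal RUNX1 sums overlap.

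The transcript share of MYB was not tested. For MLLT3 the share of its leading transcript, MLLT3-209, ran from 45.4 to 66.9% in SCR1. A shift as large as that of RUNX1-202 could thus have been missed there. Transcripts from the 5′ end of MYB (chr6:135181308-135219173, plus strand) held at least 91.9% of its TPM in each library, and MYB-205 alone held 56.9 to 67.3%. MLLT3-209 held 58.95% ± 11.8 (SD, n = 3) of the TPM of MLLT3 (chr9:20341669-20622499, minus strand) in SCR1 and 60.9% ± 6.85 (SD, n = 6) in the KO libraries, with an adjusted exact permutation p of 0.905. The other MLLT3 transcripts begin at the same distal start or within the gene.

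The genes that work with the members were taken from lists of their families and partners. The counts of called genes below, for the enhancer KO, stand beside 10.1% called higher and 10.6% called lower over all genes tested. For HOXA9 and HOXA10, 8 of the 11 genes of the HOXA cluster were at 0 in every library. HOXA13, at the 5′ end of the cluster, was the only one to pass the filter, at 1.49 ± 0.35 CPM (SD, n = 3) in SCR1 and 1.29 ± 0.53 CPM (SD, n = 6) in the KO libraries (adjusted p 0.770 by edgeR). For MEIS1, its relatives MEIS2 and MEIS3 had 0 counts, so no MEIS2 or MEIS3 RNA was detected. Of the 9 TALE cofactors 4 passed the filter and 1 was called. It was PBX2 (log2 fold change 0.27, adjusted p 0.0011). PBX2 and the other genes named in this and the next paragraphs that were not called or changed by under 0.3 were chosen after their values were seen. PRDM16, the closest relative of MECOM, was at 0, as were the other 9 members of the SPINK family.

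The heptad was incomplete in these cells. TAL1 had 2 counts in all and GATA2 none, while LYL1, LMO2, RUNX1, ERG and FLI1 were expressed. Of these 5, 2 were called higher (LMO2 and ERG), 1 lower (RUNX1) and 2 were not called, with a median log2 fold change of 0.11 against 0.003 over all genes. ERG, an ETS factor, rose from 276 ± 11.5 (SD, n = 3) to 349.5 ± 11.3 CPM (SD, n = 6), or by 0.34 on the log2 scale (adjusted p 4.8e-05 by edgeR). LYL1, the bHLH factor that can stand in for TAL1, had a log2 fold change of 0.04 (adjusted p 0.819), and FLI1 one of 0.11 (0.0801).

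Of 12 genes of the LMO2 complex, 9 passed the filter, 3 were called higher and 2 lower. Beside LMO2, those higher were CBFA2T3 (ETO2), a corepressor (log2 fold change 0.41, adjusted p 5.7e-04), and SSBP2 (0.16, 0.0099). Those lower were SSBP3 (-0.31, 0.0183) and TCF3 (-0.24, 0.0099). With sgRNA_96 alone SSBP2, SSBP3 and TCF3 missed the threshold (adjusted p 0.0599, 0.0823 and 0.0635 by edgeR). With sgRNA_97 alone each passed it (0.0250, 0.0490 and 0.0223). LMO2 and CBFA2T3 were called with each guide. SSBP2 and SSBP3 protect LDB1 from degradation. TCF3 is the bHLH partner of LYL1, and its 5′ part is also present in the TCF3::HLF fusion transcript. LDB1, which joins LMO2 to the rest, had a log2 fold change of 0.14 and did not pass the test (adjusted p 0.109).

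RUNX1 was the only called gene among the RUNX family and CBFB. RUNX3 had a log2 fold change of 0.06 (adjusted p 0.488) and CBFB, the shared partner that stabilises RUNX proteins on DNA, one of -0.11 (0.0835). RUNX2 had 16 counts over all libraries and failed the filter. Whether the change of RUNX1 differed from that of RUNX3 or CBFB was not tested.

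Of the 3 MYB family genes, 2 were called lower. MYBL2 (B-MYB), which drives genes of the G2 and M phases of the cell cycle, fell from 376 ± 29.3 (SD, n = 3) to 265 ± 19.95 CPM (SD, n = 6), a change of -0.51 on the log2 scale (adjusted p 3.3e-05 by edgeR). MYBL1 had a log2 fold change of -0.18 and did not pass (0.159). Of the 12 genes listed with MLLT3, namely itself and its elongation and DOT1L partners, all passed the filter, 4 were called higher and none lower. Beside MLLT3 these were AFF1, with a log2 fold change of 0.13, CCNT1, with 0.17, and MLLT10, with 0.16, at adjusted p of 0.0370, 0.0488 and 0.0308. DOT1L itself, the histone H3 methyltransferase bound by MLLT3, had a log2 fold change of -0.07 (0.391). With single guides, 0 of the 12 genes were called with sgRNA_96 and 2, both higher, with sgRNA_97.

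Other regulators of stem and progenitor cells moved in both directions. Of 16, 11 passed the filter, 2 were called higher and 2 lower, with a median log2 fold change of 0.05. ETV6, an ETS repressor needed by adult stem cells, rose from 63.3 ± 4.58 (SD, n = 3) to 95.9 ± 5.07 CPM (SD, n = 6), or by 0.60 on the log2 scale (adjusted p 4.0e-06 by edgeR). BCL11A, a zinc finger factor of early lymphoid cells, rose by 0.39 on the log2 scale (adjusted p 2.8e-04). Those lower were IKZF1 (log2 fold change -0.18, adjusted p 0.0090) and BMI1 (-0.15, 0.0102). HLF, whose 3′ part is in the fusion transcript, had a log2 fold change of -0.12 (0.0657). With sgRNA_97 alone HLF was called lower (-0.15, adjusted p 0.0461 by edgeR), and with sgRNA_96 alone it was not (-0.08, 0.32). IKZF1 and BMI1 were likewise called with sgRNA_97 (0.0131 and 0.0286) and not with sgRNA_96 (0.0742 and 0.0623). ETV6 and BCL11A were called with each guide.

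Of 14 surface and secreted markers of stem and progenitor cells, 7 passed the filter and 2 were called, both higher. CD34 had 1, 1 and 2 counts in SCR1 replicates 1, 3 and 4, 8, 10 and 13 with sgRNA_96, and 9, 7 and 13 with sgRNA_97. Every KO library was above every SCR1 library, but the level in the KO libraries was only 0.572 ± 0.15 CPM (SD, n = 6), and the fitted log2 fold change of 3.13 rests on 4 control counts. CD34 could pass the filter only through the KO libraries, where it is higher, so its call depends on the difference itself and its values are given as a description. ITGA6 rose by 0.48 on the log2 scale (adjusted p 4.6e-04). KIT, THY1, CRHBP, AVP and HOPX were at 0 in all libraries.

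Of 3 myeloid markers that passed the filter, 2 were higher in the KO libraries. MPO went from 2.75 ± 0.16 to 5.82 ± 1.19 CPM and ITGAM from 6.80 ± 0.64 to 11.4 ± 0.79 CPM (SD, n = 3 and 6), with adjusted p of 8.9e-04 and 1.6e-04 by edgeR. CSF1R, the most abundant of the list, had a log2 fold change of -0.21 (0.124), and CD14 and LYZ stayed under 1 TPM. Of the 9 B lineage markers, DNTT alone was called (log2 fold change 0.26, adjusted p 3.3e-04). Whether these markers have a part in the changes of LMO2, RUNX1, MYB or MLLT3 was not tested.

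**Figure D5:**
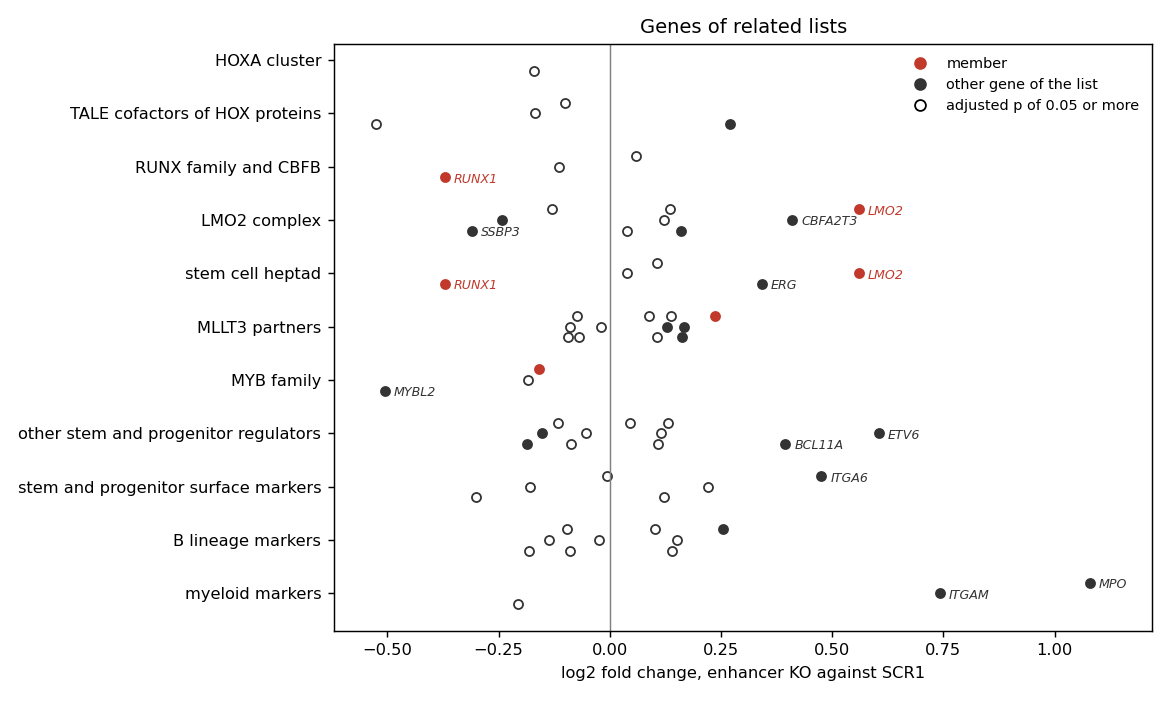
Log2 fold change of enhancer KO against SCR1 (x axis) for each gene that passed the filter, by list (y axis), with members in red, other genes in dark grey and open circles for an adjusted p of 0.05 or more. CD34 is left out since it lies off the axis at 3.13, and ETV6 at 0.60 and LMO2 at 0.56 lie farthest to the right among the lists of regulators.

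Finally, the genes with the most similar pattern over the 9 libraries were identified among 10677 genes with a mean of at least 5 CPM. Likeness was measured by Pearson's r of log2 CPM and is a description, since the 9 libraries share the split between KO and SCR1. LMO2 was most like F13A1, the A subunit of coagulation factor XIII (r = 0.997), and REV3L, the catalytic subunit of DNA polymerase zeta (r = 0.994). F13A1 went from 151 CPM in SCR1 to 279 CPM in the KO libraries. RUNX1 was most like LMNB1, which encodes lamin B1 (r = 0.990), and POLR2C, a subunit of RNA polymerase II (r = 0.987). MYB was most like SLAIN1 (r = 0.967) and SH3PXD2B (r = 0.966), and MLLT3 most like RFK, riboflavin kinase (r = 0.961), and CMTM4 (r = 0.949).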

How the data were processed

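RNA-seq was measured in 9 libraries. The authors used TrimGalore for trimming, STAR for alignment to hg38 and Salmon 1.10.1 for transcript quantification. They deposited a table of estimated counts per transcript, not normalized, of which 87.8% of values above 0 were not whole, and a table of TPM. The annotation release and any use of strand are not given in the sources used here, and all 252835 transcripts matched GENCODE release 44, so coordinates are from it.

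For each gene the estimated counts of its transcripts were added and rounded. Genes were filtered with filterByExpr (minimum count 10), scaled by TMM and fitted with edgeR 4.0.16 (quasi-likelihood F test, R 4.3.3), with the 6 KO libraries as 1 group and, for the guides, 1 fit of 3 groups. Standard errors are the log2 fold change over the root of F. Alternatives were RLE scaling, DESeq2 1.42.0 (which the study's methods name), no filter, a gene length offset, limma 3.58.1 on log2(TPM + 1) or log2(TPM + 0.1), a replicate block and leaving out each library. A pseudocount understates the change of low genes.

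The members and the lists were chosen with earlier results of these data known. The rule for names beyond the members took list genes called with a log2 fold change of at least 0.3 (at most 4 a list), the 2 genes most like each member, and MEF2C. List genes named outside this rule, uncalled or under 0.3, were picked with their values known. The fit was tested on simulated counts, with a recovery criterion changed after its first result. Counts of 2 replicates differed by 4.31 to 8.59 times the sampling chi-square, so no library was a duplicate. A marker of the erythroid and megakaryocyte list is not reported here.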

Additional observations from a re-analysis of the deposited data

Results flagged for a closer look

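In 4 sets of values 1 library stood far from the other 5 of the 6 KO libraries by Dixon's test at 95%, among 18 sets of KO values examined, where chance gives about 1 in 20. Several of the 18 are sums or shares of the same genes. LMO2 in sgRNA_97 replicate 3 was at 146 CPM, below the 154 to 157 CPM of the others and above all SCR1 libraries. MEF2C in sgRNA_97 replicate 1 was at 553 CPM against 495 to 510 CPM in the others. The sum of proximal RUNX1 transcripts in sgRNA_96 replicate 4 was 18.0 TPM against 12.5 to 14.4 TPM. MLLT3-209 held 47.3% of the TPM of MLLT3 in sgRNA_97 replicate 3 against 61.7 to 65.9%. The causes were not tested.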

How the results depend on the processing

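LMO2 and RUNX1 kept their direction and their call under all 17 alternatives for the enhancer KO. In the 3 tests on TPM, namely log2(TPM + 1), the same without a filter and log2(TPM + 0.1), 2 members were called for the KO in each and 1 for sgRNA_96 in each, and 1 was called for sgRNA_97 in log2(TPM + 1) without a filter. Leaving out single libraries gave 2 to 4 members for the KO. Over all genes, the TPM tests called 1240, 648 and 1246 genes for the KO, 448, 201 and 451 for sgRNA_96, and 706, 311 and 706 for sgRNA_97, and the gene length offset called 1526, 661 and 927. Without single libraries the counts were 1503 to 3547 for the KO (lowest without SCR1 replicate 1), 743 to 1989 for sgRNA_96 (lowest without sgRNA_96 replicate 3) and 987 to 1791 for sgRNA_97 (lowest without SCR1 replicate 1). For sgRNA_97 against sgRNA_96, 3 genes became 8 with DESeq2, 106 with no filter, 1 with the length offset, 0, 1 and 0 in the TPM tests, and 1 to 3 without single libraries. The causes were not tested.

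Same-numbered replicates did not deviate together (correlations -0.06 to 0.05 over 9 pairs), so the numbers were not taken to pair the libraries. With the replicate number as a block, 2936 genes were called for the KO, 1576 for sgRNA_96, 2082 for sgRNA_97 and 1 between the guides, and the block changed no call of a member.

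The uncalled log2 differences between the guides changed sign for LMO2 with the length offset (0.0033). Without single libraries they ranged from -0.033 to 0.023 for LMO2, from -0.11 to 0.029 for RUNX1, from -0.051 to 0.014 for MYB and from -0.0044 to 0.075 for MEF2C. The share of RUNX1-202 differed by -12.2 percentage points from counts, past the threshold, and that of MLLT3-209 by -4.85 to 5.90 points without single libraries, negative without SCR1 replicate 4. MLLT3, with 369 to 599 counts per library, is the least precisely measured of the 4 expressed members.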
